A study of Homo sapiens with 3 samples.

Results

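Trimethylation of histone H3 at lysine 36 (H3K36me3) was mapped by chromatin immunoprecipitation sequencing (ChIP-seq) in LNCaP cells, a widely used line from a human prostate cancer that responds to androgen. The genes described are KMT2B, PTPRF, PICK1, MAN1B1 and AP5Z1. Each lies under a block of neighbouring H3K36me3 peaks that was at least 4-fold less covered in cells given the androgen dihydrotestosterone (DHT) than in untreated cells, here called a lost block. They take in 5 of the 13 such blocks among 2676 compared, and were chosen by the covered length of these blocks in the 2 libraries. The untreated library came from cells labelled as having no treatment, kept in RPMI medium with serum. The DHT library came from cells given 100 nM DHT for 4 h in RPMI described as red-free, so hormone and medium differ together. Both used the same Abcam antibody to H3K36me3, and the input library was not analysed here. There is 1 library per condition and hence no test, and all differences below are between 2 libraries.

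H3K36me3 is laid down in the bodies of transcribed genes by SETD2, an enzyme that travels with elongating RNA polymerase II. It is usually low at the start of a gene and higher toward its end, where it helps to keep transcription from starting inside the gene. A peak marks a stretch where a threshold was passed, so a missing peak does not show that the mark was absent. In a population of cells, fewer cells with the mark and less mark per cell cannot be told apart.

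The 5 genes have unrelated roles. KMT2B, also listed as MLL4, methylates a different residue, lysine 4 of histone H3, and is recruited to promoters rich in unmethylated CpG. PTPRF, also known as LAR, is a receptor-type tyrosine phosphatase of the cell surface that acts at cell contacts. PICK1 is a scaffold with a PDZ and a BAR domain that binds protein kinase C alpha and steers the traffic of membrane receptors. MAN1B1 trims mannose from glycoproteins and feeds misfolded ones into degradation from the endoplasmic reticulum. AP5Z1 encodes the zeta subunit of AP-5, an adaptor complex of late endosomes and lysosomes.

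The sequence just before each gene start is shown because it bounds where peaks were found: neither library had a peak over any of the 5 starts. The 250 bases that precede the start in RefSeq (GRCh38.p14, all on the plus strand) are given with each CG in capitals; PICK1 has a pair of annotated starts and the first is shown.
KMT2B: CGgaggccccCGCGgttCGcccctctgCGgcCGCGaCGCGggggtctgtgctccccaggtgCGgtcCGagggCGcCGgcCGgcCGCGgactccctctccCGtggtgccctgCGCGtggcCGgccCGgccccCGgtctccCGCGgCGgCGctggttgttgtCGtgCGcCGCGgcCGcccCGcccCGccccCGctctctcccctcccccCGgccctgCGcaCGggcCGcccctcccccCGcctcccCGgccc
PTPRF: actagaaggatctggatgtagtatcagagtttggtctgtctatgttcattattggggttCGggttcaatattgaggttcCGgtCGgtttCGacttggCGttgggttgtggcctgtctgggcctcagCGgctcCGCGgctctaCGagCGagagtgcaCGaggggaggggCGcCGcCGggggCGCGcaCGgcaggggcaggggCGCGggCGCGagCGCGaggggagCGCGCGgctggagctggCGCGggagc
PICK1: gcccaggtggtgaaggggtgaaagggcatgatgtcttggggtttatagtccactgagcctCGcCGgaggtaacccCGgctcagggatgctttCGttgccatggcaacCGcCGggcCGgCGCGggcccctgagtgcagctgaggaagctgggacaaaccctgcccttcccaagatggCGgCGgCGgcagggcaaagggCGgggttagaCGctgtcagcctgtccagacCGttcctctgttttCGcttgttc
MAN1B1: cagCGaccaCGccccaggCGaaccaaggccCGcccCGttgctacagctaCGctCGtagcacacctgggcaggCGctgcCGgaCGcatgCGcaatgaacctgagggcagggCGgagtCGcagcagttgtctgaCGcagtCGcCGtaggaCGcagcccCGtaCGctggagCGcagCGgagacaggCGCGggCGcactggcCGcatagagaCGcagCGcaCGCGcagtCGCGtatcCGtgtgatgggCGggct
AP5Z1: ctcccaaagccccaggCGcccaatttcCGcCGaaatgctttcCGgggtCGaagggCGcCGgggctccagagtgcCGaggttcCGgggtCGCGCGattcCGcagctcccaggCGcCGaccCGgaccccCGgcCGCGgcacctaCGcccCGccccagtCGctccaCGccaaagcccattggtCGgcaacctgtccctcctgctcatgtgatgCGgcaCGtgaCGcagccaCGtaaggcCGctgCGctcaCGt
All 5 hold more CG than the median promoter: 40 in KMT2B, 28 in PTPRF, 16 in PICK1, 33 in MAN1B1 and 31 in AP5Z1, against a median of 11 over 35115 promoter entries of the same length, of which 93.9% hold CG at all. The androgen receptor half-site AGAACA, searched on both strands (TGTTCT on the other), was in none of the shown sequences, in the other PICK1 entry, and in 12.4% of all entries. In the peak lists, which use the older build hg19, the peak nearest to a gene start lay between 1.90 kb (PICK1, untreated) and 7.75 kb (PTPRF, untreated) away. Gene spans on hg19 were taken in whole kb, so positions near their ends are known only to that grain. RefSeq's GRCh38 model of PTPRF, at 101.6 kb, is longer than the 93 kb span used here, and its shown start need not be that of the span.

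For the blocks, peaks from the 2 lists were merged across gaps of up to 5 kb. Blocks of 10 kb or more were compared where either library covered 5 kb or more of them. Of the 2676 blocks, 0.486% were at least 4-fold less covered after DHT, which is the share the 5 genes were drawn from and not a result about them. At least 4-fold more covered were 42, or 1.57%, and 51.8% were less covered by any amount. PTPRF and AP5Z1 hold the only compared blocks with no DHT peak at all. By fold, PICK1 ranked 3, KMT2B 5 and MAN1B1 11. By the difference in covered length KMT2B, PTPRF, PICK1 and MAN1B1 ranked 1, 2, 3 and 5, and AP5Z1 12. Among the higher-scoring 50% of each list only the blocks of KMT2B and PTPRF met the rule, and with peaks merged across up to 10 kb, which ties the blocks to their surroundings, 0 of the 5 did. Under such settings blocks were formed anew and the minimum length and cover applied again, so a block could fail on size alone. In the higher-scoring 50% the PICK1 block kept 5.21 kb untreated and 0 kb after DHT, and that of AP5Z1 0.375 and 0 kb. That of MAN1B1 had 0.370 and 2.07 kb. The weakest block inside the line, on chromosome 20 from 61902109 to 61921076, had 8.65 kb untreated and 2.12 kb after DHT, a 4.08-fold difference. The first one outside, on chromosome 17 from 40813346 to 40827069, had 8.18 and 2.14 kb, or 3.83-fold.

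**Figure D1:**
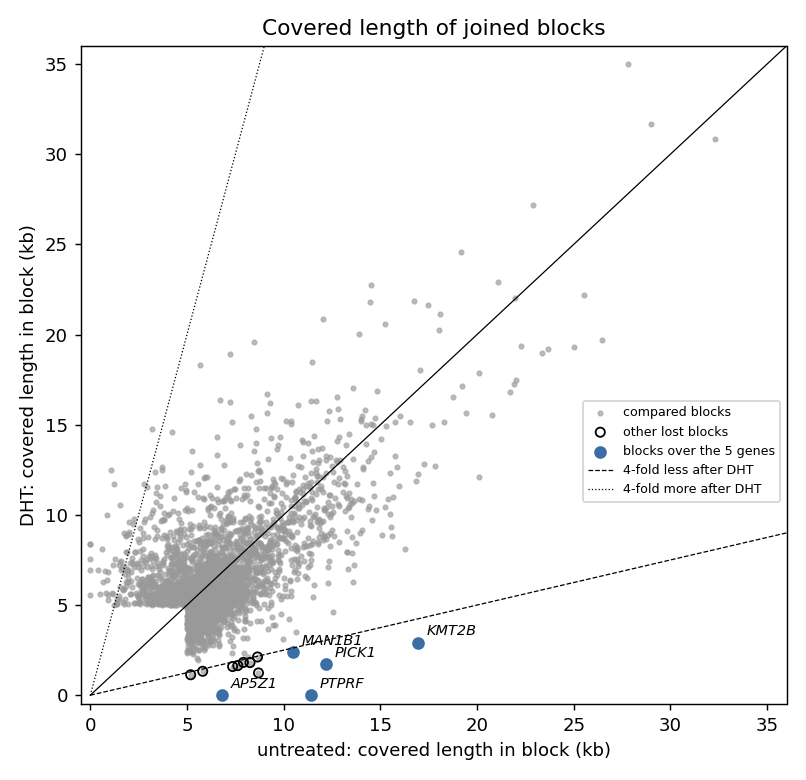
Covered length per joined block in untreated cells (x axis, kb) and after DHT (y axis, kb), one point per compared block, with lines at equal cover and at 4-fold. The blocks over the 5 genes, in blue, lie below the dashed line with 0 to 2.92 kb after DHT against 6.79 to 16.9 kb untreated.

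KMT2B was covered over most of its length in untreated cells, and after DHT only by a single high-scoring peak near its end. The gene spans 36209 to 36230 kb on chromosome 19, and the block runs from 36212160 to 36235232, passing the gene's end by 5.23 kb. In untreated cells 3 wide peaks of 5660, 4957 and 6327 bp lay between 3.16 kb and 21.6 kb after the gene's start. There were gaps between them, and the last passed the end of the span. Their scores were 84.4, 96.7 and 202, so the mark scored highest toward the end of the gene. After DHT the gene held 1 peak of 2327 bp, from 18.4 to 20.7 kb, which lay wholly inside the last untreated peak. Its score of 615 was above that of 99.7% of DHT peaks, while the untreated peak around it was above 92.1% of its own list. The other DHT peak of the block, 594 bp with a score of 66.1, lay past the gene's end and had no untreated counterpart. Covered length in the block was 16.9 kb untreated and 2.92 kb after DHT, a 5.80-fold difference. Within the gene body itself it was 77.9% and 11.1% of the span. IGFLR1 follows KMT2B in RefSeq's gene order, and the reach of the block past KMT2B was not assigned to a gene.

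PTPRF, the longest of the 5 genes, had peaks of both libraries in its first and last parts and its lost block in the middle. Its longest stretch without a peak was 22.7 kb untreated and 35.8 kb after DHT, the latter wider than the block. The gene spans 43996 to 44089 kb on chromosome 1, and the block runs from 44034960 to 44050283, that is 39.0 to 54.3 kb into the gene. There the untreated library had a pair of peaks of 5059 and 6349 bp with scores of 157 and 89.2, covering 11.4 kb, and the DHT library had none. Before the block, 4 untreated peaks covered 12.3 kb and 6 DHT peaks 6.25 kb. Of these untreated peaks, the one next to the block, 3415 bp at 28.5 kb, also had no DHT peak over it. The strongest peak of the gene lay before the block at 23.1 kb in both libraries. Its scores, 336 untreated and 361 after DHT, were above 98.2% and 97.9% of their own lists. After the block, 2 untreated peaks covered 10.6 kb and 2 DHT peaks 9.13 kb, with 8947 bp in common. At the end of the gene the DHT peak scored 268, above 95.0% of its list, and the untreated peak 53.8, above 8.61% of its list. Over the whole gene body 36.9% was covered untreated and 16.5% after DHT, a 2.23-fold difference, less than in the block alone.

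PICK1 was covered from near its start almost to its end in untreated cells and only near its start after DHT. The gene spans 38453 to 38472 kb on chromosome 22 and the block 38454896 to 38469408. Untreated peaks of 883, 1994, 3216 and 6073 bp followed each other from 1.90 to 16.4 kb, with scores of 80.7, 176, 97.0 and 74.6. The only DHT peak, 1710 bp from 2.74 to 4.45 kb, scored 54.5, which was above 8.64% of its list. It overlapped the 2 untreated peaks nearest the start, and the 2 wider ones had no DHT peak over them. Covered length was 12.2 kb untreated and 1.71 kb after DHT, or 7.11-fold, and 64.0% and 9.0% of the gene span.

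MAN1B1 had a like pattern, with DHT peaks only in its first part, but its direction rested on low-scoring peaks. The gene spans 139981 to 140004 kb on chromosome 9 and the block 139983559 to 139998670. Untreated peaks of 1724, 370, 3027 and 5351 bp lay from 3.42 to 17.7 kb and scored 61.9, 82.3, 75.5 and 72.3. Of these only the shortest passed the list's median score of 81.2. DHT peaks of 2065 and 330 bp at 2.56 and 6.53 kb scored 141 and 54.3. Covered length was 10.5 kb untreated and 2.40 kb after DHT, or 4.37-fold. Among the higher-scoring 50% of each list it was 0.370 kb untreated and 2.07 kb after DHT, the opposite direction, and at scores of at least 100 no untreated peak was left beside the 2.07 kb after DHT.

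AP5Z1 had no DHT peak in its body. The gene spans 4815 to 4834 kb on chromosome 7 and the block 4820273 to 4834601. Untreated peaks of 2762, 1654 and 1997 bp lay in the gene at 5.27, 10.4 and 14.7 kb with scores of 57.9, 56.7 and 66.2, above 17.4%, 14.9% and 31.9% of the list. Another of 375 bp, with a score of 187, lay just past the span's end at 19.2 kb. These covered 6.79 kb of the block, 47.4% of it, and 33.8% of the gene body. Among the higher-scoring 50% of peaks only this short one was left. The lowest untreated score of the 5 blocks, 56.7, is that of a peak inside AP5Z1.

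**Figure D2:**
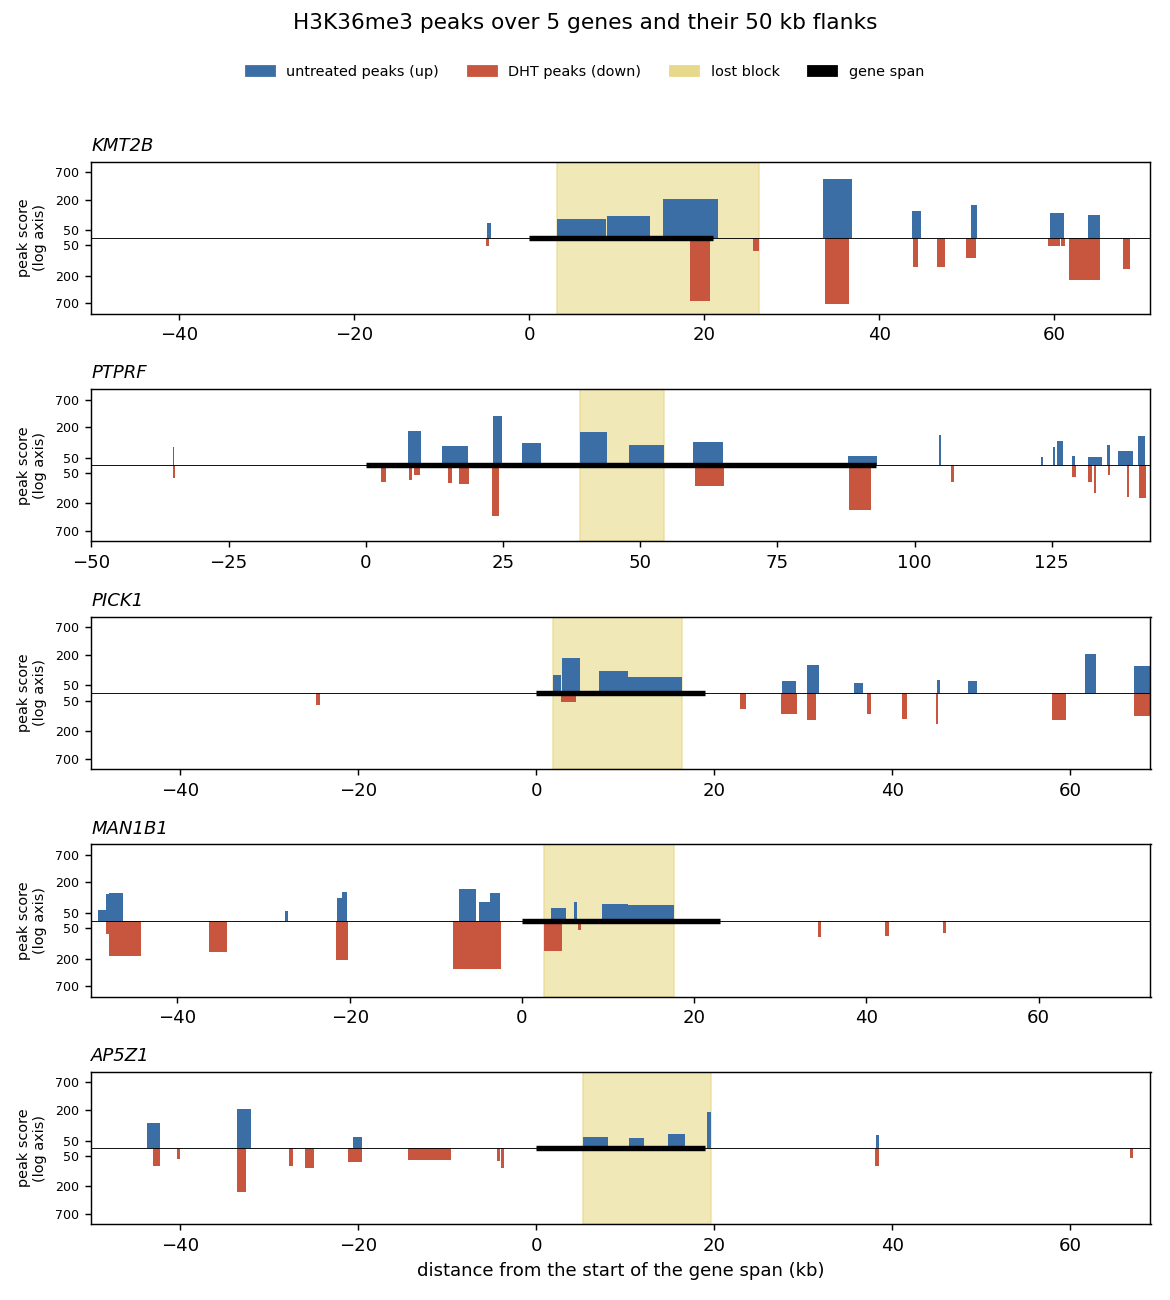
Peaks over each gene and 50 kb on either side, by distance from the start of the gene span (x axis, kb); bar width is peak width and bar height the authors' score on a log axis, untreated upward and DHT downward, with the lost block shaded and the gene span in black. Untreated bars cover 47.4% (AP5Z1) to 83.8% (PICK1) of the shaded blocks, where the DHT list has 2, 0, 1, 2 and 0 peaks from top to bottom.

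Most untreated peaks of the blocks were wide, and the wide ones scored low for their width. The 5 blocks held 17 untreated and 5 DHT peaks. Of the untreated ones, 10 were at least 2 kb wide, as are 2.58% of the list, and 6 at least 5 kb. Their scores ran from 56.7 to 202 with a median of 82.3, next to 81.2 for the list. Those of at least 2 kb had a median of 86.8, against 138 for all untreated peaks of that width. That is not particular to the 5 blocks. The same median was 84.8 in the other 8 lost blocks and 80.8 in the 42 blocks at least 4-fold more covered after DHT. Over all compared blocks it was 123. Of the 17, 13 had no overlapping DHT peak, beside 47.7% of all untreated peaks. Of the 10 wide ones 9 had none, beside 8.83% of all untreated peaks of that width. Of the 5 DHT peaks, 2 had no untreated peak over them, beside 51.5% of all DHT peaks, and both of those at least 2 kb wide had one, where 23.3% of all DHT peaks of that width lack it. These counts follow from how the blocks were chosen.

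**Figure D3:**
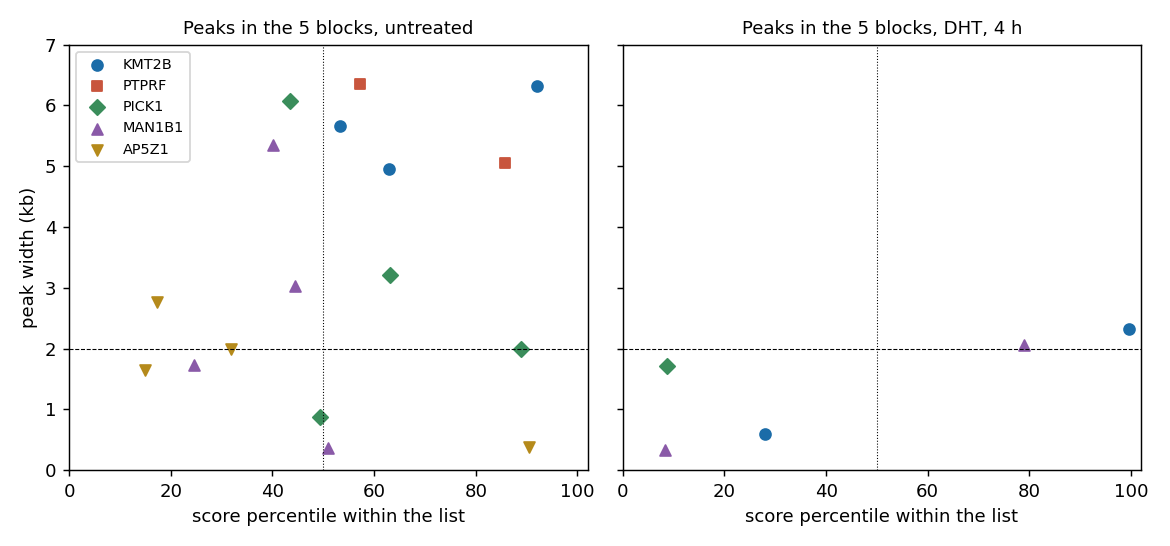
Width (y axis, kb) and score percentile within its own list (x axis) of each peak in the 5 blocks, untreated on the left and DHT on the right; the lines mark 2 kb and the list median. Untreated peaks reach 6.35 kb at middling percentiles, whereas the widest DHT peak, in KMT2B, is 2.33 kb at percentile 99.7.

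Outside the blocks the difference was smaller or turned the other way. The blocks were chosen for their large difference, so a smaller one outside them follows from that choice. In KMT2B, PICK1, MAN1B1 and AP5Z1 no peak of either library lay in the gene outside the block. This follows almost wholly from the joining rule, which leaves no peak within 5 kb of a block. The remainders in these genes are at most 5.33 kb long on a side. The remainder of gene body with peaks is therefore that of PTPRF, with 22.9 kb untreated and 15.4 kb after DHT. From peaks under 2 kb alone it was 1.79 and 6.25 kb, the opposite direction. Of 6 untreated peaks there, 1 had no overlapping DHT peak, beside 47.7% of all untreated peaks. That peak was 1 of the 5 at least 2 kb wide, beside 8.83% of all untreated peaks of that width. In the 50 kb flanks of all 5 genes covered length was 40.1 kb untreated and 50.3 kb after DHT, 1.25 times as much. The whole lists covered 64.3 Mb untreated and 66.0 Mb after DHT. The sequence before the genes had 13.4 and 24.7 kb, and that after them 26.7 and 25.6 kb. Without peaks of at least 2 kb the flanks had 29.4 kb untreated and 26.1 kb after DHT, so the direction rested on wide peaks.

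Single flanks differed. Before MAN1B1, where UAP1L1 precedes it in RefSeq's order, cover was 8.82 kb untreated and 12.9 kb after DHT. There 3 untreated peaks of 1917, 1247 and 1207 bp lay under 1 DHT peak of 5580 bp with a score of 314, which ended 2.47 kb before the gene. That DHT peak ends at 139978531 and the block of MAN1B1 starts at 139983559, barely more than the 5 kb across which peaks were merged. The split of block and flank here rests on that distance, and merged across 10 kb the MAN1B1 block did not meet the rule. From peaks under 2 kb alone the ratio over both flanks of MAN1B1 was 0.310 in place of 1.59. Before AP5Z1, which FOXK1 precedes, cover was 3.98 and 10.6 kb. This direction turned under score filters: the ratio over both flanks of AP5Z1, DHT over untreated, was 2.62, but 0.647 in the higher-scoring 50% and 0.329 at scores of at least 100. A DHT peak of 4873 bp with a score of 59.6, from 14.5 to 9.59 kb before the gene, had no untreated counterpart and is part of the DHT cover. After KMT2B cover was 7.995 and 11.4 kb, and a strong peak of both libraries stood 12.6 kb past the gene's end. Its scores, 516 untreated and 728 after DHT, were above 99.6% and 99.8% of their own lists. After PICK1 cover was 8.18 and 8.02 kb, and the ratio over both flanks, 1.05, was 0.754 at scores of at least 100. After PTPRF it was 10.2 and 4.34 kb, less after DHT as in the block. From peaks under 2 kb alone the ratio over both flanks of PTPRF was 0.973 in place of 0.450, so most of that difference lay in wide peaks. Little of the sequence before KMT2B, PTPRF and PICK1 or after MAN1B1 and AP5Z1 was marked, at most 2.24% in either library.

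**Figure D4:**
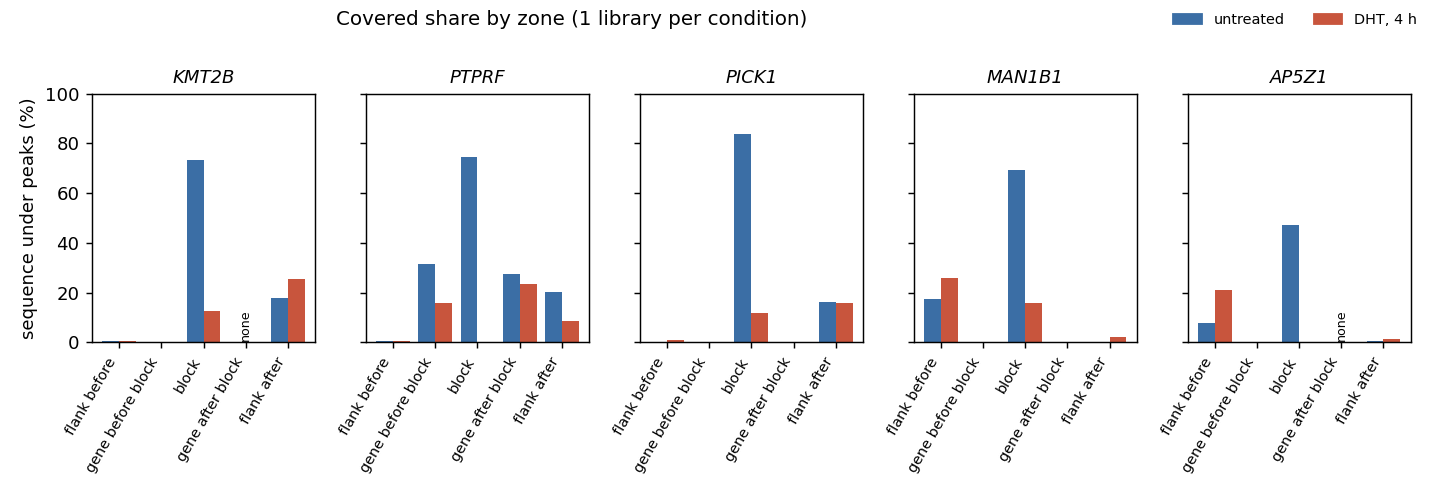
Percent of sequence under peaks (y axis) in each zone (x axis) of the 5 genes, untreated in blue and DHT in red, 1 library each; "none" means that the block reaches the gene's end. Blocks go from 47.4% to 83.8% untreated and from 0% to 15.8% after DHT, while in the flanks cover after DHT reaches 25.8%.

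The gaps of the DHT list show the blocks without any joining of peaks. Of the 131774 gaps between neighbouring DHT peaks, 44, or 0.0334%, held at least 5 kb of untreated peaks, and 206 of 117540 gaps between untreated peaks, 0.175%, held as much of DHT peaks. The gap with the most untreated cover of all lay in PTPRF: 35.8 kb long, from 24.3 to 60.1 kb into the gene, with 15.9 kb of untreated peaks. The next, 22.9 kb long with 13.9 kb, lay over KMT2B and reached from 4.55 kb before the gene to 18.4 kb inside it. PICK1 ranked 5 with 9.72 kb in an 18.4 kb gap and MAN1B1 8 with 8.38 kb in 27.5 kb. AP5Z1 ranked 17 with 6.79 kb in a gap of 41.8 kb that took in the whole gene. These ranks use the lists that chose the genes and are a description.

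**Figure D5:**
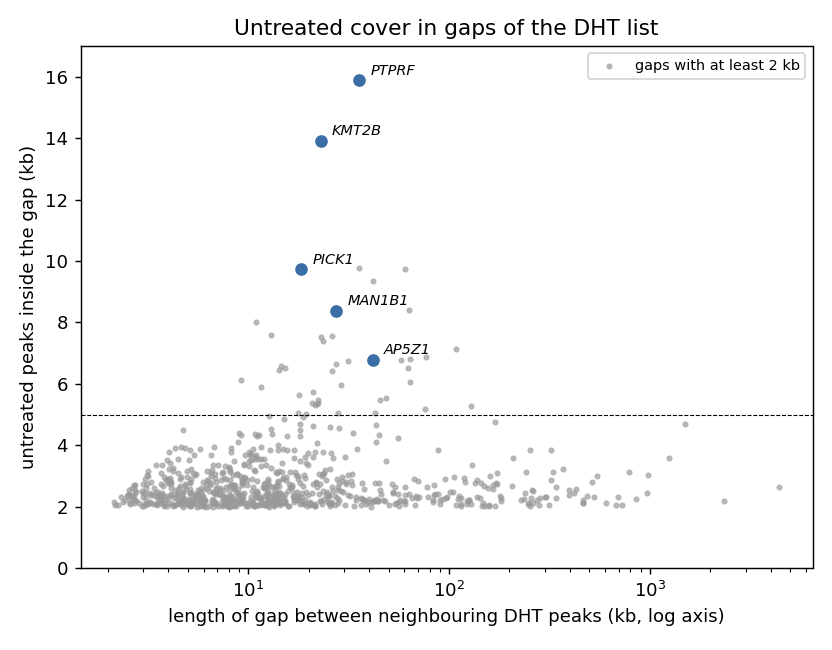
Each gap between neighbouring DHT peaks that holds at least 2 kb of untreated peaks, by its length (x axis, kb, log axis) and the untreated cover in it (y axis, kb). The gaps over PTPRF and KMT2B, at 15.9 and 13.9 kb, stand above all others.

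Beside the other 8 lost blocks, those of the 5 genes had a longer median length, 15.1 kb against 11.3 kb. Their median cover in untreated cells was also higher, 73.4% against 64.1%. The ranges overlapped: the AP5Z1 block was covered to 47.4%, and among the other 8 length reached 19.0 kb and cover 82.3%. Untreated peaks of at least 2 kb made up 58.8% of peaks in the 5 blocks and 54.5% in the other 8. Of the DHT peaks, 40% (2 of 5) in the 5 blocks and 0% in the other 8 were that wide. In the 42 blocks more covered after DHT, the shares were 45.3% of DHT peaks and 5.88% of untreated ones. Blocks were picked by covered length, to which wide peaks add most, so these shares are a description. Over all 2676 blocks the shares were 7.56% untreated and 5.53% after DHT. Median scores of the untreated peaks were 82.3 in the 5 blocks, 81.6 in the other 8 and 89.6 over all blocks. No test of these differences can be made with 1 library per condition, and the 5 genes were picked after the blocks had been seen.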

How the data were processed

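ChIP-seq for H3K36me3 was deposited as 1 peak list per library, untreated and DHT. The caller was MACS, per the peak names in the files, and the build hg19, per the file names. Aligner, caller settings, control and read depth: not given in the sources used here. No counting interval can therefore be given. The score of each peak is the authors' deposited value, from 50 to 3100, its scale is not stated, and it served to describe, order and select peaks inside each list. The exceptions are the filters at fixed scores of 75 and 100, which assume that the lists share a scale.

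The untreated list holds 117564 peaks over 64.3 Mb of nuclear chromosomes and the DHT list 131798 over 66.0 Mb; the few mitochondrial peaks were left out. Overlap means at least 1 bp. Covered lengths, blocks, gaps and flanks of 50 kb were computed with NumPy 2.4.6 under Python 3.11.15 and drawn with Matplotlib 3.10.9. On simulated peaks 20 of 20 planted lost blocks among 400 were recovered. The planted losses lay far past the 4-fold line and had no near neighbours, so this checks the code only. No hg19 annotation or genome was used here, so exons, related genes and prostate marker genes were not placed, and no sequence of a peak is shown; gene order and promoters are RefSeq's (GRCh38.p14, no lift of coordinates). The genes named are all 5 of the rule. The genes, lists and rules were chosen with earlier results of these data known. Alternatives were other joining distances, folds, minimum cover, score and width filters, flank lengths and overlap rules.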

Additional observations from a re-analysis of the deposited data

How the results depend on the processing

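No paired analysis was possible because each condition has 1 library. The number of lost blocks, 13, became 73 at 2-fold and 2 at 8-fold. It was 1, 3 and 4 when peaks were joined at 1, 2 and 10 kb, and 0 for peaks under 2 kb. It was 9 to 17 under the other settings. Of the 5 genes' blocks, 2 met the rule at 8-fold (PTPRF, AP5Z1), 2 in the higher-scoring 50% of each list and 2 at scores of at least 75 (KMT2B and PTPRF both times), 1 joined at 1 kb and 1 at 2 kb (KMT2B), 0 joined at 10 kb, 0 at scores of at least 100 and 0 for peaks under 2 kb. Under the score and width filters and the other joining distances, blocks were formed anew and the minimum length and cover applied again. A block could thus fail on size alone. At scores of at least 100 the PTPRF block had 5.06 kb untreated and that of PICK1 1.99 kb, both with 0 kb after DHT. AP5Z1 had 0.375 and 0 kb, KMT2B 6.33 and 2.33 kb, and MAN1B1 0 and 2.07 kb. All 5 met the rule at 2-fold and with at least 3 kb covered, as blocks chosen at 4-fold and 5 kb must. They also met it in lists trimmed to the same covered length, where the cut falls on the DHT list, which has more cover. These 3 settings therefore say little about how firm the losses are. The DHT over untreated ratio of cover in the 5 blocks together, 0.122, was 0.293 for peaks under 2 kb and 0.319 at scores of at least 100. For the gene bodies outside the blocks it was 0.672, and 3.49 for peaks under 2 kb, where 1.79 kb untreated and 6.25 kb after DHT were left. For the flanks it was 1.25, and 0.887 for peaks under 2 kb; it was 1.51 with flanks of 20 kb and 1.08 with 100 kb. Untreated peaks in the blocks without a DHT peak, 13 of 17, were 8 of 9 in the higher-scoring 50%, 5 of 7 under 2 kb and 3 of 4 at scores of at least 100, where fewer peaks enter. For single genes, the block ratio was below 1 in 21 of 22 cases that left untreated peaks and 5.58 for MAN1B1 in the higher-scoring 50%. In 3 more cases no untreated peak was left in the block: after DHT there were 2.07 kb in MAN1B1 at scores of at least 100, 0.594 kb in KMT2B for peaks under 2 kb, and none in PTPRF for peaks under 2 kb. PTPRF outside its block went from 0.672 to 3.49 for peaks under 2 kb. Flank ratios turned for AP5Z1 from 2.62 to 0.647 in the higher-scoring 50% and 0.329 at scores of at least 100, for MAN1B1 from 1.59 to 0.310 for peaks under 2 kb, and for PICK1 from 1.05 to 0.754 at scores of at least 100. Where no reason is given the cause was not tested. Read depth is unknown, so what it limits cannot be stated.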
